A study of Drosophila melanogaster with 12 samples.

Results

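The 10 genes described here encode parts of the contractile apparatus of Drosophila muscle, together with the muscle transcription factor Mef2. They were chosen by name, with earlier results of these data known. The gene identifiers of the deposited table were matched to their FlyBase symbols. The entries for Mef2, Tm1, Tm2, Mlc1, Mlc2, Mhc, sls, up, wupA and Act57B were kept, 10 of the 13777 genes measured. Each was read in 8 libraries of 3′-end sequencing, a method that captures the polyadenylated ends of transcripts and counts them.

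The cells were S2R+, a long-established cultured line of Drosophila melanogaster with properties of hemocytes (blood cells), and the study compared the effect of overexpressing ELAV/Hu proteins, RNA-binding proteins found mainly in neurons. The 4 groups of 2 libraries were cells with no treatment given in the labels (untreated) and cells transfected with the wild-type form of Elav (ElavWT), Fne (FneWT) or Rbp9 (Rbp9WT). All cells grew in Schneider medium with serum, and the labels state neither whether untreated cells received a transfection without a protein nor what promoter drove the proteins. The 4 libraries of proteins with mutated RNA-binding domains are not analysed here. Whether replicates were separate cultures is not stated, so the p-values rest on a spread between libraries that may be technical.

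Striated muscle contracts when thick filaments of myosin slide along thin filaments of actin. Tropomyosin lies along the thin filament and, with the troponin complex, makes this sliding depend on calcium, while giant titin-like proteins span parts of the sarcomere, the repeating contractile unit. Mef2 is a MADS-box transcription factor that muscle differentiation requires in the fly, and genes of thick and thin filaments are among its known targets there. None of these genes is a defining gene of the blood cell lineage.

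The libraries held from 4694825 to 14391952 reads, so 1 read was worth 0.0695 to 0.213 CPM (reads scaled to a common library total). In every group the library numbered 1 was deeper than the library numbered 2. Genes named as rRNA took 2.91% to 5.91% of the reads in replicates 1 and 15.4% to 24.8% in replicates 2. Among hemocyte markers, Pxn stood at 44.4 to 199 CPM, srp at 27.1 to 88.0 CPM, crq at 132 to 356 CPM and ush at 93.8 to 279 CPM in the 8 libraries. Others were lower, with Sr-CI at 12.3 to 24.8 CPM, eater at 3.81 to 23.7 CPM and Hml at 0.417 to 5.25 CPM, while NimC1 was at 0 in 7 libraries. Col4a1 ranged from 9.45 to 42.7 CPM, vkg from 7.16 to 34.4 CPM and Ppn from 3.89 to 65.9 CPM. Of the 11 muscle-defining genes listed beside the 10, Act88F, fln, TpnC47D and Act79B were at or near 0 (at most 0.398 CPM) in all libraries, while Mf was at 772 to 1922 CPM and Prm, bt, TpnC41C and TpnC73F reached 26.2, 16.9, 11.98 and 10.6 CPM in their highest library. Act87E and Mlp84B reached 1.12 and 1.99 CPM. Fewer cells making an RNA and less of that RNA per cell cannot be told apart in such pooled material.

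The tests covered the 9114 genes whose CPM averaged 1 or more across the libraries, and 9 of the 10 genes were among them. Act57B fell under that level. Tm2, Mlc1 and Mhc had untreated means under 1 CPM and entered only through the transfected libraries, so a count over the genes tested is a description and not evidence about the whole set. A limma fit with the group alone, which was set as the main test, passed 0% of the genes in each comparison. Libraries with the same replicate number deviated together. The calls given here come from the limma fit that also holds the replicate number (the paired fit), which was set as an alternative to the main test. Log2 changes are of CPM + 1, are given ± SE with 2 libraries a group, and are relative to the median tested gene, which itself stood 0.25 (ElavWT), 0.28 (FneWT) and 0.42 (Rbp9WT) above untreated cells. The adjusted p-values test the change without that shift.

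**Figure D1:**
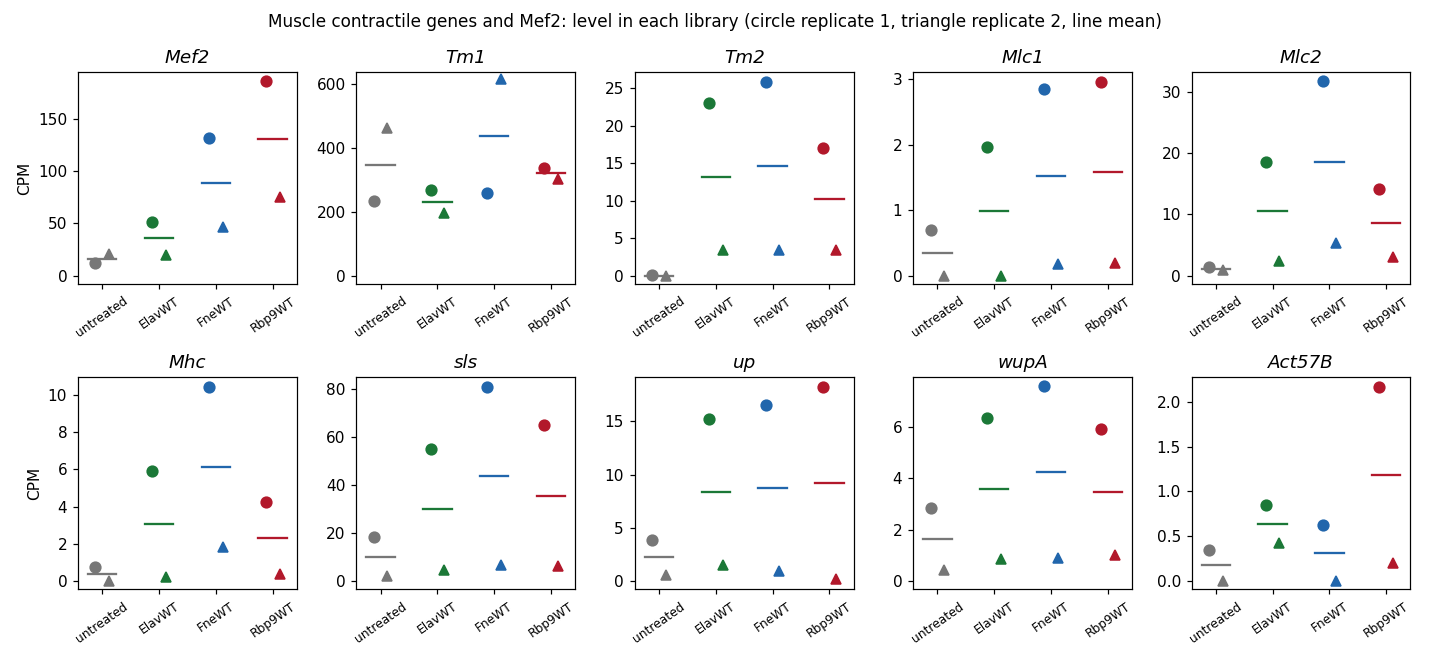
CPM (y axis, linear, own scale per panel) of each of the 10 genes in each group (x axis), with replicate 1 as a circle, replicate 2 as a triangle and the mean as a line. Tm2 was at 0.0695 and 0 CPM in untreated cells and between 3.39 and 25.8 CPM in every transfected library, and for most genes the circle lies far above the triangle.

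In the paired fit 3 of the 9 genes tested were higher than untreated in ElavWT (Tm2, Mlc2 and sls), where 9.02% of all tested genes were higher. In FneWT 5 were higher (Tm2, Mlc2, Mef2, Mhc and sls), where 15.1% of all tested genes were higher. In Rbp9WT 4 were higher (Tm2, Mef2, Mlc2 and sls), where 17.7% of all tested genes were higher. No member was lower, where 1.09%, 1.94% and 0.735% of all tested genes were, and the 3 comparisons share the same untreated libraries. Both libraries of the transfected group lay above both untreated libraries for 2 of the 9 genes in ElavWT (Tm2 and Mlc2), 4 in FneWT (these, Mef2 and Mhc) and 3 in Rbp9WT (Tm2, Mlc2 and Mef2), as they did for 23%, 25.3% and 33.5% of all tested genes. The median relative change of the 9 was 0.88 for ElavWT, 1.47 for FneWT and 0.61 for Rbp9WT. Without the replicate number, 1, 2 and 2 of the 9 had an unadjusted p under 0.05 in the 3 comparisons, where 4.87%, 7.43% and 7.31% of all tested genes did. DESeq2 without the replicate number passed 1 (Tm2), 3 (Tm2, Mef2, Mlc2) and 2 (Tm2, Mef2), where it passed 2.73%, 4.37% and 2.76% of all tested genes as higher, and edgeR without it passed no gene. The counts of the paired fit depended on single libraries, and the share of all tested genes that were higher moved with them. Without untreated replicate 1 the members higher numbered 1, 4 and 2 for ElavWT, FneWT and Rbp9WT, beside 2.91%, 5.22% and 5.86% of all tested genes. Without untreated replicate 2 they numbered 6 each, beside 25.5%, 31.6% and 33.8%, and the 6 were Mef2, Tm2, Mlc2, Mhc, sls and up in every comparison. Without the group's own replicate 1, where 8 members were tested, they numbered 1, 1 and 2, beside 3.34%, 2.6% and 6.82%.

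**Figure D2:**
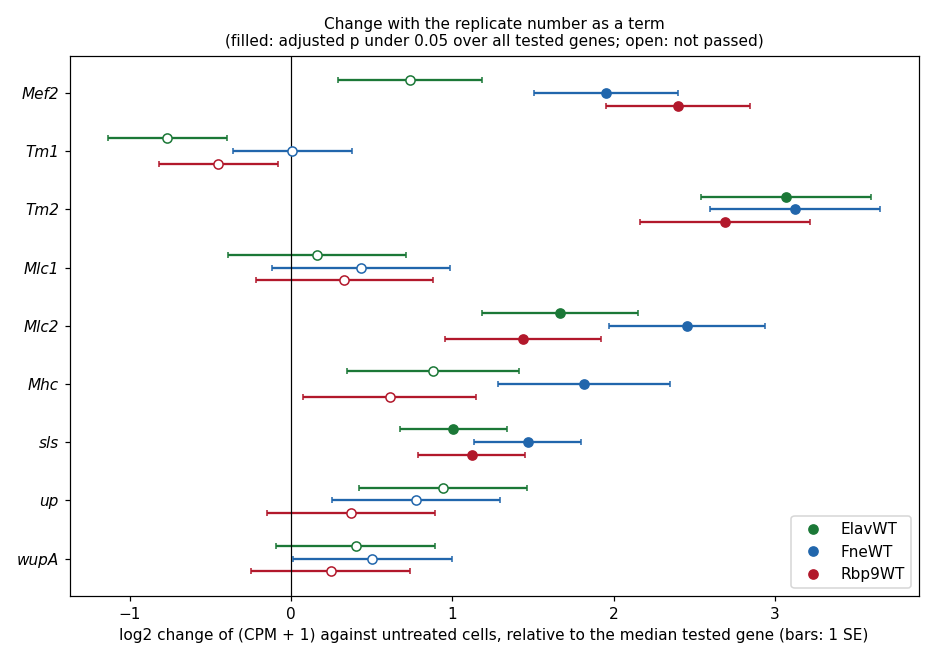
Log2 change of CPM + 1 against untreated cells, relative to the median tested gene (x axis), for the 9 genes tested (y axis) in ElavWT, FneWT and Rbp9WT, from the paired limma fit. Bars are 1 SE and filled points passed the test. Tm2 passed with all 3 proteins at 2.69 to 3.12, whereas Tm1 had values of -0.77, 0.01 and -0.45 and did not pass.

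Mef2 (FBgn0011656; BDGP6 chromosome 2R, 9913496 to 9958858, minus strand), the transcription factor, rose with FneWT and Rbp9WT. Its level was 12.3 and 20.6 CPM in the untreated replicates 1 and 2, 51.6 and 20.2 with ElavWT, 131 and 46.9 with FneWT, and 186 and 74.9 with Rbp9WT. Both FneWT and both Rbp9WT libraries therefore lay above both untreated libraries, while the ElavWT range took in the higher untreated library. The relative log2 change was 1.95 ± 0.45 in FneWT (paired limma, adjusted p = 0.00482) and 2.40 ± 0.45 in Rbp9WT (adjusted p = 0.00106). In ElavWT it was 0.73 ± 0.45 and did not pass (adjusted p = 0.202), with a 95% interval from -0.24 to 1.71. Summed over the replicates, untreated cells gave 317 Mef2 reads, and the CPM ratio of summed reads was 2.62 (2.26 to 3.03) in ElavWT, 6.48 (5.73 to 7.35) in FneWT and 9.73 (8.64 to 10.99) in Rbp9WT. These 95% exact intervals, like those given for the other genes, cover counting error only.

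The size of the Mef2 change differed between the replicate numbers. In ElavWT the relative change against the untreated library of the same number was 1.59 in replicate 1 and -0.10 in replicate 2. In FneWT it was 2.80 and 1.10, and in Rbp9WT 3.30 and 1.51. Untreated cells were the only group in which Mef2 was lower in replicate 1 than in replicate 2, with a CPM ratio of 0.598 against 2.55 for ElavWT, 2.79 for FneWT and 2.48 for Rbp9WT. The FneWT call was lost without FneWT replicate 1 (1.67, adjusted p = 0.180), and without untreated replicate 1 the values were 1.09 in FneWT and 1.56 in Rbp9WT, which still passed (adjusted p = 0.0280 and 9.51e-04). Without untreated replicate 2 the ElavWT change was 1.61 and passed (adjusted p = 8.73e-05).

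Between the proteins, Mef2 was highest in Rbp9WT, then FneWT, then ElavWT by mean CPM (130.5 ± 78.6, 89.01 ± 59.5 and 35.9 ± 22.2, SD, n = 2), above 16.4 ± 5.84 in untreated cells. The relative difference of Rbp9WT from ElavWT was 1.69 ± 0.45 and did not pass in paired limma (adjusted p = 0.0959; 95% interval 0.72 to 2.66), although both Rbp9WT libraries lay above both ElavWT libraries, as they did for 15.1% of all tested genes. DESeq2 with the replicate number passed it (adjusted p = 0.0160). For FneWT against ElavWT the difference was 1.21 ± 0.45 (adjusted p = 0.486; 95% interval 0.24 to 2.18). For Rbp9WT against FneWT it was 0.47 ± 0.45 (adjusted p = 0.951; 95% interval -0.51 to 1.44), and the libraries of these neighbours overlapped. The annotation gives Mef2 11 transcripts with 3 different 3′ ends and 3′ UTRs of 628 to 3250 bases. The table holds 1 level per gene, so which of these ends was used was not measured.

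Of the thin filament genes, Tm2 (FBgn0004117; chromosome 3R, 15310193 to 15315197, plus strand), which encodes a tropomyosin of muscle, rose with all 3 proteins from a level at the detection limit. It gave 1 read among the 21200878 of untreated cells, at 0.0695 CPM in replicate 1 and 0 in replicate 2, where a count of 0 allows up to 0.441 CPM. In replicates 1 and 2 it stood at 23.0 and 3.41 CPM in ElavWT, at 25.8 and 3.46 in FneWT and at 17.01 and 3.39 in Rbp9WT. All 6 transfected libraries were above both untreated ones, and the replicate 2 libraries of the 3 proteins stood close together. These levels rested on 163, 208 and 149 reads in the replicate 1 libraries and on 16, 19 and 17 in the replicate 2 libraries of ElavWT, FneWT and Rbp9WT.

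The relative log2 change of Tm2 was 3.07 ± 0.53 in ElavWT (paired limma, adjusted p = 2.03e-04), 3.12 ± 0.53 in FneWT (9.52e-05) and 2.69 ± 0.53 in Rbp9WT (2.67e-04). It passed whichever single library was left out, and without untreated replicate 1 the Rbp9WT value was 1.74. With so few untreated reads the size depends on the scale: a pseudocount of 0.25 in place of 1 gave 4.77, 4.82 and 4.35, and edgeR with the replicate number gave 7.72, 7.77 and 7.27. The CPM ratio of summed reads to the single untreated read was 322 in ElavWT (95% exact interval 57.0 to 12785), 355 in FneWT (63.1 to 14095) and 255 in Rbp9WT (45.2 to 10146). The differences among the 3 proteins did not pass and had 95% intervals of -1.04 to 1.14 (FneWT against ElavWT), -1.45 to 0.74 (Rbp9WT against ElavWT) and -1.51 to 0.68 (Rbp9WT against FneWT).

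Tm1, which encodes the other fly tropomyosins and is also made outside muscle, did not pass with any protein. Its levels in replicates 1 and 2 were 232 and 462 CPM in untreated cells, 267 and 195 with ElavWT, 259 and 615 with FneWT, and 336 and 303 with Rbp9WT. The libraries of every transfected group overlapped the untreated range, and replicate 2 was the higher one in untreated cells and FneWT only. The relative change was -0.77 ± 0.37 in ElavWT (95% interval -1.53 to -0.0023; paired limma, adjusted p = 0.398), 0.01 ± 0.37 in FneWT (-0.76 to 0.77; 0.621) and -0.45 ± 0.37 in Rbp9WT (-1.22 to 0.31; 0.959), and the FneWT value turned to -0.02 with median-ratio scaling. Tm1 (FBgn0003721; chromosome 3R, 15278220 to 15308779, plus strand) and Tm2 are neighbours on the same strand, with a gap of 1413 bp and no annotated gene between them. Tm1 has 18 annotated transcripts with 9 different 3′ ends, and 2 genes overlap it on the opposite strand. Since the sources used here do not say whether counting used strand, reads of such partners cannot be told apart from its own.

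The troponin genes up (FBgn0004169; troponin T, which binds tropomyosin) and wupA (FBgn0283471; troponin I, the inhibitory subunit) did not pass with any protein when all libraries were used. In replicates 1 and 2, up was at 3.89 and 0.587 CPM in untreated cells, 15.2 and 1.49 with ElavWT, 16.5 and 0.910 with FneWT, and 18.3 and 0.199 with Rbp9WT. The gene wupA was at 2.85 and 0.441 CPM in untreated cells, 6.34 and 0.852 with ElavWT, 7.58 and 0.910 with FneWT, and 5.94 and 0.996 with Rbp9WT. For both genes each transfected replicate 1 was above untreated replicate 1, but every transfected replicate 2 lay inside the untreated range or, for up in Rbp9WT, below it at a single read. The relative changes of up were 0.94 ± 0.52, 0.77 ± 0.52 and 0.37 ± 0.52 in ElavWT, FneWT and Rbp9WT (paired limma, adjusted p = 0.155, 0.163 and 0.305), with 95% intervals reaching 2.01, 1.85 and 1.44. Without untreated replicate 2, up passed with each protein (1.63, 1.45 and 1.03; adjusted p = 0.00382, 0.00449 and 0.0135), while wupA did not pass whichever single library was left out. Those of wupA were 0.40 ± 0.49, 0.50 ± 0.49 and 0.24 ± 0.49 (adjusted p = 0.433, 0.280 and 0.371), with intervals reaching 1.42, 1.52 and 1.26. Both genes lie on chromosome X (up at 13593474 to 13602578 and wupA at 18105568 to 18116922, both minus strand).

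Act57B (FBgn0000044; chromosome 2R, 20944021 to 20946431, plus strand), a muscle actin and a known target of Mef2 in the fly, was too low to be tested. Its level in replicates 1 and 2 was 0.347 and 0 CPM in untreated cells, 0.846 and 0.426 with ElavWT, 0.621 and 0 with FneWT, and 2.17 and 0.199 with Rbp9WT. The highest library, Rbp9WT replicate 1, held 19 of its reads, and no other held more than 6. Both ElavWT libraries, with 6 and 2 reads, were above both untreated ones. The ratio of summed reads in Rbp9WT to those in untreated cells was 6.15 (95% exact interval 2.24 to 21.0), and in ElavWT and FneWT it was 2.88 (0.830 to 11.2) and 1.57 (0.360 to 6.80). A small RNA gene (snoRNA:660) overlaps Act57B on the same strand, so its assignment is uncertain. Fly actin genes are near-identical in their coding sequence, but 3′-end sequencing reads transcript ends. Act57B has 1 annotated 3′ end, with a 3′ UTR of 497 bases.

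Of the thick filament genes, Mlc2 (FBgn0002773; chromosome 3R, 30171438 to 30174551, minus strand), the regulatory light chain of muscle myosin, rose with all 3 proteins. Its level in replicates 1 and 2 was 1.46 and 0.881 CPM in untreated cells, 18.6 and 2.34 with ElavWT, 31.7 and 5.28 with FneWT, and 14.2 and 2.99 with Rbp9WT. The groups did not overlap with untreated cells, as for Tm2. The relative log2 change was 1.66 ± 0.48 in ElavWT (paired limma, adjusted p = 0.0116), 2.46 ± 0.48 in FneWT (3.22e-04) and 1.44 ± 0.48 in Rbp9WT (0.00883). On summed reads the ratios were 9.53 (6.28 to 14.95), 16.5 (11.1 to 25.4) and 7.92 (5.22 to 12.4). The call was lost without untreated replicate 1 in ElavWT (0.89, adjusted p = 0.396) and Rbp9WT (0.67, 0.326), without replicate 1 of the group itself in ElavWT (1.22, 0.240), FneWT (2.21, 0.0719) and Rbp9WT (1.34, 0.0993), and without Rbp9WT replicate 2 (1.55, 0.0534). Mlc2 has a single annotated transcript, with a 3′ UTR of 1552 bases.

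Mhc (FBgn0264695; chromosome 2L, 16766566 to 16788766, plus strand), the single muscle myosin heavy chain gene of the fly, passed with FneWT. Its level in replicates 1 and 2 was 0.764 and 0 CPM in untreated cells, 5.92 and 0.213 with ElavWT, 10.4 and 1.82 with FneWT, and 4.22 and 0.398 with Rbp9WT. Both FneWT libraries were above both untreated ones, while replicate 2 of ElavWT and Rbp9WT (1 and 2 reads) fell inside the untreated range. The relative change was 1.82 ± 0.53 in FneWT (paired limma, adjusted p = 0.00806), 0.88 ± 0.53 in ElavWT (0.195; 95% interval -0.22 to 1.98) and 0.61 ± 0.53 in Rbp9WT (0.187; -0.49 to 1.71). edgeR with the replicate number passed Mhc in ElavWT as well (adjusted p = 0.0422). The FneWT call was lost without untreated replicate 1 (1.32, adjusted p = 0.107), without FneWT replicate 1 (1.81, 0.200) and without FneWT replicate 2 (1.80, 0.0633). Without untreated replicate 2, Mhc passed in ElavWT (1.39, 0.00809) and Rbp9WT (1.09, 0.00933) too. Mhc has 21 annotated transcripts, which share 1 annotated 3′ end.

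Mlc1 (FBgn0002772; chromosome 3R, 27657078 to 27660177, minus strand), the alkali light chain of muscle myosin, was near the limit of detection. In replicates 1 and 2 it was at 0.695 and 0 CPM in untreated cells, 1.97 and 0 with ElavWT, 2.86 and 0.182 with FneWT, and 2.97 and 0.199 with Rbp9WT. Each replicate 2 library held at most 1 read, and a difference between groups was not detectable there. The relative change was 0.16, 0.43 and 0.33 (each ± 0.55) in ElavWT, FneWT and Rbp9WT and did not pass (paired limma, adjusted p = 0.678, 0.385 and 0.366), with 95% intervals reaching 1.29, 1.57 and 1.46.

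The gene sls (FBgn0086906; chromosome 3L, 2039681 to 2115611, minus strand) encodes Sallimus, a titin-like protein that links thin and thick filaments near the Z-disc, and it rose with all 3 proteins. Its level in replicates 1 and 2 was 18.4 and 1.91 CPM in untreated cells, 55.3 and 4.69 with ElavWT, 81.1 and 6.73 with FneWT, and 64.9 and 6.18 with Rbp9WT. Each transfected library was above the untreated library of its own number, but all the replicate 2 libraries of the transfected groups lay below untreated replicate 1, so the groups overlapped. The relative log2 change was 1.00 ± 0.33 in ElavWT (paired limma, adjusted p = 0.0158), 1.47 ± 0.33 in FneWT (6.28e-04) and 1.12 ± 0.33 in Rbp9WT (0.00208). Within replicate 1 these were 1.14, 1.57 and 1.25, and within replicate 2 they were 0.88, 1.36 and 1.00. The changes of sls were close in size in both replicate numbers, while those of Tm2 were 4.10, 4.14 and 3.56 within replicate 1 and 2.06, 2.10 and 1.83 within replicate 2. The calls were lost without untreated replicate 1 in ElavWT (0.89, adjusted p = 0.256) and Rbp9WT (1.02, 0.0582), and without replicate 1 of the group itself in ElavWT (0.96, 0.199), FneWT (1.43, 0.0585) and Rbp9WT (1.07, 0.0604), with the change about as large as in the full fit. In the fit with group alone the sign turned without untreated replicate 2 (ElavWT -0.26, Rbp9WT -0.14) or without the group's own replicate 1 (-0.35 and -0.24). An antisense RNA gene overlaps sls on the opposite strand.

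In the comparisons between the proteins no member passed in paired limma, where 0.176% of all tested genes passed for FneWT against ElavWT, 0.592% for Rbp9WT against ElavWT and 0% for Rbp9WT against FneWT. Of the 9 tested, 2 (Mef2 and Tm1), 1 (Mef2) and 0 had an unadjusted p under 0.05 in these comparisons, as did 706, 1006 and 506 of all tested genes. With the replicate number, edgeR passed no member, while it passed 21, 54 and 1 of all tested genes, and DESeq2 passed Mef2 alone, in Rbp9WT against ElavWT, and 34, 82 and 4 of all tested genes. By mean CPM, Tm1, Tm2, Mlc2, Mhc, sls and wupA were highest in FneWT, and Mef2, Mlc1, up and Act57B in Rbp9WT. For Rbp9WT against FneWT the relative difference was -0.999 ± 0.48 in Mlc2 (adjusted p = 0.939; 95% interval -1.997 to -0.00063) and -1.19 ± 0.53 in Mhc (0.910; -2.29 to -0.09), against 0.47 ± 0.45 in Mef2. In FneWT against either of the other proteins the libraries of every tested member overlapped, while 8.04% of all tested genes lay wholly higher in FneWT than in ElavWT and 10.7% wholly higher in Rbp9WT than in FneWT. Both Rbp9WT libraries were above both ElavWT libraries for 2 of the 9 members tested, Mef2 and Tm1, as they were for 15.1% of all tested genes. In FneWT against ElavWT the count was 1 without untreated replicate 1 or without untreated replicate 2, where 1.45% of all tested genes passed in either case. In Rbp9WT against ElavWT it was 1 without untreated replicate 1 (3.24% of all tested genes), without untreated replicate 2 (3.28%) or without Rbp9WT replicate 2 (0.0981%).

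Most of these genes also differed between the replicate numbers, a comparison that was added after the values had been seen. In paired limma 8 of the 9 genes tested, all but Tm1, were higher in replicate 1 than in replicate 2, where 48.3% of all tested genes were higher and 9.78% lower. With median-ratio scaling the count was 7 higher and 1 lower, beside 30.3% and 22.2% of all tested genes. Relative to the median gene, which was 0.59 higher in replicate 1, the difference was 2.57 ± 0.23 for sls (adjusted p = 6.37e-10), 2.29 ± 0.37 for up (8.78e-07) and 1.20 to 1.25 for Mhc, Mlc2, wupA and Tm2. The CPM ratio of replicate 1 to replicate 2 for sls was 9.64 in untreated cells, 11.8 for ElavWT, 12.1 for FneWT and 10.5 for Rbp9WT, so the gap was already present without transfection. For up the ratio was 6.62, 10.2, 18.2 and 91.7 in the same order, the last against a single read. The share of rRNA-named genes and the depth moved with the replicate number, and so did neuron markers, of which 8 of 8 tested were higher in replicate 1 (summed level 149 to 502 CPM in replicates 1 and 61.2 to 122 CPM in replicates 2). Their part in the result was not tested.

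**Figure D3:**
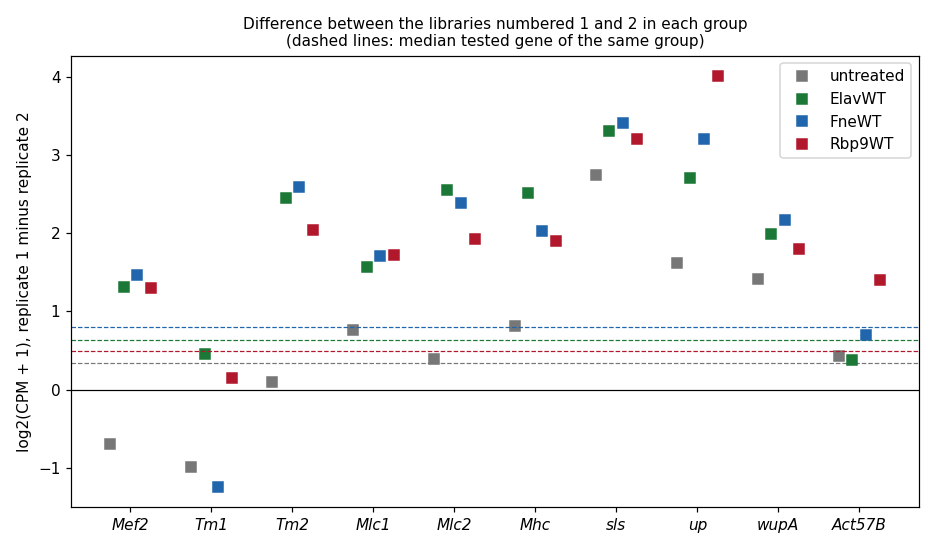
Difference in log2(CPM + 1) between replicate 1 and replicate 2 (y axis) for each of the 10 genes (x axis) in each group, with dashed lines at the median tested gene of the same group. The sls points lie between 2.74 and 3.41 in all 4 groups, and Mef2 is at -0.70 in untreated cells and at 1.30 to 1.46 in the other groups.

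Further muscle genes were examined as lists. Of 25 other sarcomere and muscle structure genes, 24 were measured and 16 tested, and 2, 3 and 2 of them were higher with ElavWT, FneWT and Rbp9WT, with none lower. Their medians were -0.11, 0.36 and -0.07 relative to the median gene, and their shares of 12.5%, 18.8% and 12.5% stood beside 9.02%, 15.1% and 17.7% of all tested genes. The titin-like kinase gene bt (projectin) passed at 1.42 ± 0.53 in ElavWT (paired limma, adjusted p = 0.0438) and 1.78 ± 0.53 in FneWT (0.00817). Prm, the paramyosin gene of the thick filament core, passed at 1.23 ± 0.46 in ElavWT (0.0393) and 1.03 ± 0.46 in FneWT (0.0494). The actin regulator sals passed in FneWT (1.22 ± 0.49, 0.0374) and overlaps other genes. In Rbp9WT the 2 that passed were the troponin C gene TpnC41C (1.25 ± 0.53, 0.0285) and Obsc, which encodes the giant sarcomere protein obscurin (1.08 ± 0.53, 0.0492). TpnC41C averaged 0.660 CPM in untreated cells and entered the tests only through the transfected libraries, so the shares of this list are a description.

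**Figure D4:**
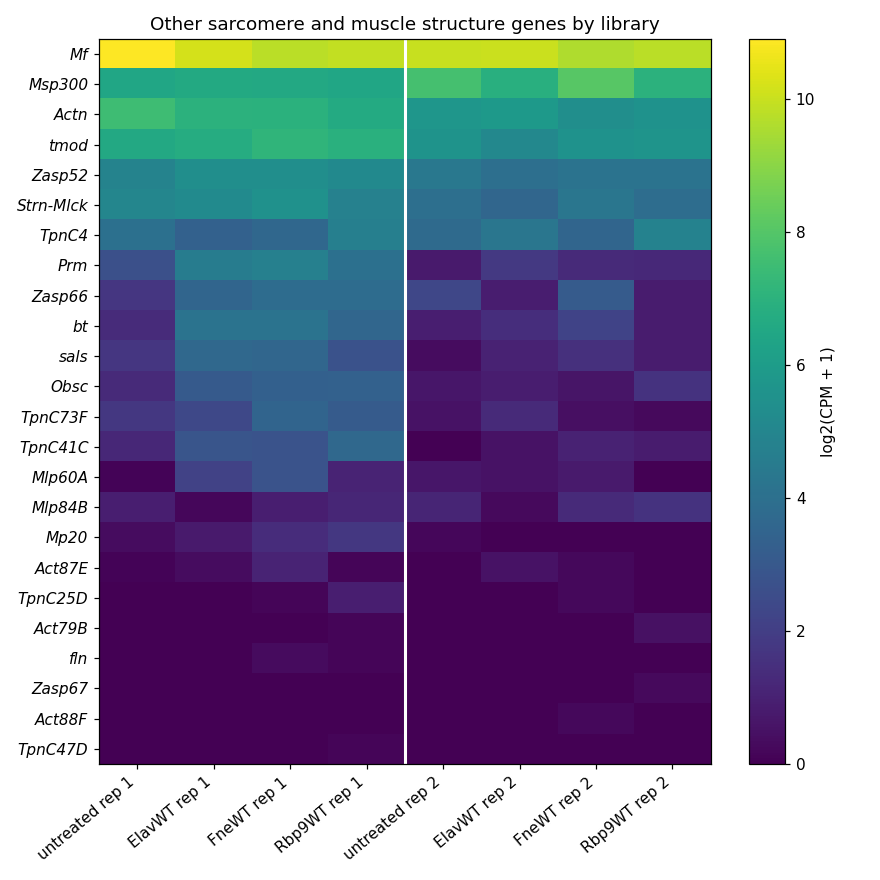
Level as log2(CPM + 1) (colour) of the 24 measured sarcomere and muscle structure genes outside the 10 (y axis, ordered by mean) in each library (x axis), with replicate 1 libraries left and replicate 2 libraries right of the white line. Genes such as Prm, bt and sals are brighter on the left and least so there in untreated cells, whereas the lowest genes, such as Act88F, fln and TpnC47D, are at or near 0 throughout.

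Mf, which encodes the muscle protein myofilin, was abundant without transfection, at 1922 and 1027 CPM in untreated replicates 1 and 2 against 772 to 1195 CPM in the other groups. The summed level of the 11 muscle-defining genes outside the set, Mf included, was 1934 and 1030 CPM in untreated cells, 1245 and 1063 with ElavWT, 943 and 780 with FneWT, and 996 and 874 with Rbp9WT. All of these 11 genes are also in the list of other sarcomere and muscle structure genes, and 6 were tested. In ElavWT and FneWT 2 were higher (bt and Prm) and in Rbp9WT 1 (TpnC41C), which are calls already given for that list. The shares were 33.3%, 33.3% and 16.7%, beside 9.02%, 15.1% and 17.7% of all tested genes. TpnC41C entered the tests only through the transfected libraries, so these shares too are a description. Another gene overlaps Mf on the opposite strand.

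Among 25 myogenic transcription factors and co-regulators, 23 were measured and 15 tested, and 2, 6 and 5 were higher in ElavWT, FneWT and Rbp9WT, with medians of 0.30, 0.73 and 0.42. These counts are shares of 13.3%, 40% and 33.3%, beside 9.02%, 15.1% and 17.7% of all tested genes. The mesoderm determinant twi, which acts upstream of Mef2 in the fly embryo, stood at 7.37 and 0.881 CPM in untreated replicates 1 and 2, 36.9 and 8.73 with ElavWT, 48.1 and 15.3 with FneWT, and 32.4 and 4.58 with Rbp9WT. It rose by 2.03 ± 0.36 (paired limma, adjusted p = 1.26e-04), 2.55 ± 0.36 (4.73e-06) and 1.37 ± 0.36 (0.00106), although its locus overlaps 4 other genes. The flight muscle regulator vg rose in FneWT (2.29 ± 0.49, 6.06e-04) and Rbp9WT (2.37 ± 0.49, 2.74e-04), and slou, an identity gene of embryonic muscle founders, rose in FneWT (2.27 ± 0.55, 0.00204). Untreated cells averaged 0.456 CPM of vg and 0 of slou, so both entered the tests only through the transfected libraries. The shares of this list are therefore a description and not evidence about the list. The flight muscle and neuronal factor ewg rose in all 3, by 1.43 ± 0.35 in ElavWT (0.00254), 1.58 ± 0.35 in FneWT (5.79e-04) and 0.93 ± 0.35 in Rbp9WT (0.00875). Scalloped (sd), a cofactor of vg, passed in Rbp9WT at 0.70 ± 0.31 (0.0127). It also passed in FneWT, outside the 4 largest changes of the list there.

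Genes of muscle calcium handling, fusion, attachment and the non-muscle cytoskeleton passed at most once per list and comparison, and such counts are to be read beside the 9.02%, 15.1% and 17.7% of all tested genes that were higher with ElavWT, FneWT and Rbp9WT. The calcium pump SERCA alone of 5 tested calcium handling genes passed, in Rbp9WT (0.44 ± 0.30, paired limma, adjusted p = 0.0486), a share of 20% near that of all tested genes, and the list's medians were -0.44, -0.11 and 0.04 in ElavWT, FneWT and Rbp9WT. None of 9 integrin attachment genes passed, with medians of 0.22, -0.10 and -0.37. Of 12 myoblast fusion genes Vrp1, which promotes actin assembly at fusion sites, passed in each comparison, a share of 8.33% and below that of all tested genes (1.27 ± 0.30, adjusted p = 0.00153; 1.40 ± 0.30, 3.57e-04; 1.30 ± 0.30, 2.79e-04), with list medians of 0.07, -0.15 and -0.13. Of 12 non-muscle actomyosin genes Mbs, a subunit of myosin phosphatase, passed in FneWT (0.64 ± 0.31, 0.0389), and the medians were -0.57, -0.31 and -0.43. The loci of SERCA and Vrp1, like those of ewg and sd, overlap genes on the opposite strand.

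Markers of other cell types were counted in the same way, beside the 9.02%, 15.1% and 17.7% of all tested genes that were higher with ElavWT, FneWT and Rbp9WT. Of 10 hemocyte markers tested, none was higher and 1 (Pxn) lower in ElavWT, 3 were higher in FneWT (Ppn, Col4a1 and vkg) and 4 in Rbp9WT (those 3 and eater), which are shares of 0%, 30% and 40%, with summed levels of 521 and 540 CPM in untreated cells and 446 to 978 CPM in the others. Of 8 neuron markers tested 2, 4 and 3 were higher (25%, 50% and 37.5%), and the summed level of the list was 149 and 61.2 CPM in untreated replicates 1 and 2, 365 and 122 with ElavWT, 453 and 102 with FneWT, and 502 and 111 with Rbp9WT. Of these markers ChAT averaged 0.599 CPM in untreated cells and entered only through the transfected libraries, so the shares are a description. By mean CPM nSyb alone of the list was lower with each protein (18.0 in untreated cells, then 7.76, 12.8 and 7.70). Its replicate 2 level was lowest in untreated cells. Of 6 fat body markers 2 were tested and 0, 2 and 1 were higher, with a summed level of 1.60 and 4.26 CPM in untreated cells and 6.60 to 30.9 CPM in the others, while Lsp1alpha and Fbp1 were at 0 in every library. The part of these markers in the muscle result was not tested.

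The genes with profiles most like that of Mef2 over the 8 libraries, by the root mean square difference of log2(CPM + 1) values centred on their means, were asRNA:CR45367 (0.31), CrebA (0.32) and lncRNA:CR46119 (0.33), beside 1.15 for the median tested gene. The first, asRNA:CR45367, was at 0 CPM in both untreated libraries and in ElavWT replicate 2, reached 6.62 CPM at most and overlaps another gene. Like lncRNA:CR46119, it was under 1 CPM in untreated cells and entered only through the transfected libraries. CrebA, a transcription factor of the secretory pathway, was at 76.4 and 134 CPM in untreated replicates 1 and 2, 319 and 195 with ElavWT, 606 and 325 with FneWT, and 815 and 410 with Rbp9WT. Because CrebA was picked for its likeness to Mef2 in these same libraries, the shared order of groups is no separate result. The nearest of the contractile genes was Mlc2, with 0.86 at rank 1293. The profiles most like that of Tm2 were those of Vm26Ab (0.20), which encodes an eggshell protein of the vitelline membrane, CG42494 (0.21) and Pal2 (0.27), with 1.57 for the median tested gene. Vm26Ab had 0 reads in both untreated libraries and stood at 23.5 and 2.34 CPM with ElavWT, 32.6 and 3.46 with FneWT, and 14.0 and 3.19 with Rbp9WT. CG42494 and Pal2 were also under 1 CPM in both untreated libraries, and each overlaps another gene. Mlc2 was again the nearest of the set, with 0.56 at rank 65.

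In the Ensembl annotation of BDGP6 the 10 genes lie on 5 chromosome arms, with 4 on 3R, 2 each on 2R and X and 1 each on 2L and 3L. More than 1 3′ end is annotated for 7 of them, but the share over all measured genes was not counted, so this marks no trait of the set. All 10 have a longest annotated 3′ UTR above 238 bases, the median over 12792 measured genes. Among the 3 genes that rose with every protein, Tm2 has 3′ UTRs of 213 to 1017 bases, Mlc2 of 1552 bases and sls of 491 to 2451 bases.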

How the data were processed

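Transcript 3′ ends of S2R+ cells were sequenced in libraries made, per the labels' protocols, with 2 ug of total RNA. The authors deposited 1 table of CPM (counts scaled to the library total) for 13777 genes and 8 libraries. Per the submitters' processing notes the genome was dm6. The sources used here give no aligner, counter or use of strand. Sample titles gave the groups and replicate numbers.

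The CPM worth of 1 read was recovered from the spacing of each library's values, and 100% of the values were whole reads within 0.01 of a read. Identifiers matched the Ensembl BDGP6 annotation for 13684 genes, with 93 unmatched. The 9114 genes averaging 1 CPM or more entered limma 3.58.1 (trend, robust; R 4.3.3) as log2(CPM + 1), with group alone (4 residual degrees of freedom) or with the replicate number as a further term (3), with Benjamini-Hochberg adjustment over all of them and a threshold of 0.05. Same-numbered libraries deviated from their group means together (correlations of 0.55 to 0.869 in 6 pairs of groups). The labels do not state what a number shares, so this pairing comes from the data alone. DESeq2 1.42.0 and the quasi-likelihood test of edgeR 4.0.16 served as alternatives on the recovered reads. The fits were also run on simulated data, with the same replicate effect in every group and changes only in well-detected genes. That run does not test the fits for genes near the detection limit or with replicate gaps that differ between groups. Other alternatives were median-ratio scaling, CPM without 11 rRNA-named genes, a pseudocount of 0.25, other filters on low values and each library left out. Intervals of read ratios are exact and cover counting error only. Tables and figures were made in Python 3.11.15 with matplotlib 3.10.9, scipy 1.17.1, numpy 2.4.6 and pandas 2.3.3.

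The members and gene lists were chosen with earlier results of these data known. All 10 members are named, and of each list up to 4 genes with the largest relative change among those that passed with the replicate number, and the 3 profiles nearest to Mef2 and to Tm2. Markers named for a cell type, and Mf, fall outside that rule and were chosen after their values were seen.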

Additional observations from a re-analysis of the deposited data

How the results depend on the processing

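The fit with group alone, the main test, passed no member and no gene, and every limma call rests on the pairing by replicate number. With the replicate block, 921 tested genes passed in ElavWT, 1551 in FneWT and 1684 in Rbp9WT against untreated cells, 16 in FneWT against ElavWT, 54 in Rbp9WT against ElavWT and 0 in Rbp9WT against FneWT. The members that passed numbered 3, 5 and 4 in ElavWT, FneWT and Rbp9WT with the block, and also with the block and median-ratio scaling, CPM without rRNA-named genes, a pseudocount of 0.25, no filter, a filter of 1 CPM in 2 libraries or DESeq2. The share of all tested genes higher was 9.02%, 15.1% and 17.7% with the block, but 7.68%, 12.2% and 10.3% with median-ratio scaling and 4.7%, 9.2% and 9.78% with no filter. With the block and edgeR the counts were 4, 5 and 4, beside 11.1%, 15.7% and 13.7%, with the block and DESeq2 the shares were 10.7%, 14.5% and 13.2%, and with DESeq2 without the block the counts were 1, 3 and 2, beside 2.73%, 4.37% and 2.76%. DESeq2 with the block passed 1 member (Mef2) in Rbp9WT against ElavWT. With single libraries left out, with or without the block, the count ran from 0 to 6 in each comparison with untreated cells, from 0 to 1 in FneWT and in Rbp9WT against ElavWT, and was 0 in Rbp9WT against FneWT, while with the block the share of all tested genes higher ran from 2.91% to 25.5%, 2.6% to 31.6% and 5.86% to 33.8% with ElavWT, FneWT and Rbp9WT. A group left with 1 library was assumed to vary like the others. Signs turned in 14 of the 27 member changes, mostly with a library left out, and the cause was not tested. The change of Tm1 in FneWT was 0.007, but -0.019 with median-ratio scaling, -0.0087 with a pseudocount of 0.25 and -0.031 with the filter of 1 CPM in 2 libraries. With a library left out, the lowest and highest changes were -0.12 and 1.61 for Mef2 in ElavWT, -0.12 and 0.67 for Mlc1 in ElavWT, -0.080 and 1.86 for Mhc in ElavWT, -0.10 and 1.32 for Mhc in Rbp9WT, -0.35 and 2.38 for sls in ElavWT, and -0.24 and 2.48 for sls in Rbp9WT. For up they were -0.11 and 2.02 with ElavWT, -0.47 and 1.99 with FneWT, and -1.39 and 2.13 with Rbp9WT. For wupA they were -0.30 and 1.12, -0.23 and 1.21, and -0.41 and 0.90, and for Tm1 they were -0.99 and 0.98 in FneWT and -1.15 and 0.16 in Rbp9WT. Depth limits Mlc1, Mhc, Act57B and untreated Tm2, where a library held few or no reads.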
